A study of Mus musculus with 4 samples.

Results

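Snrpn, Ndn, Magel2 and Mkrn3 are the genes of the imprinted Snrpn domain of mouse chromosome 7 described here. They were found through the non-control probes that carry these names in the array annotation, 117 of 520554 probes: 32 for Snrpn, 43 for Ndn, 42 for Mkrn3 and 0 for Magel2, so 3 of the 22176 gene names on the array were found. DNA methylation was measured by methylated DNA immunoprecipitation (MeDIP), in which an antibody enriches methylated fragments, with MeDIP DNA labelled in Cy3 and the unenriched input DNA labelled in Cy5, on 2-colour Agilent mouse promoter arrays. The cells were mouse leukemic cells in 4 groups with 1 array each. They were WT untreated, KO untreated, WT with decitabine and KO with decitabine, a cytidine analogue that is built into DNA and depletes DNA methyltransferases.

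Decitabine was given at 20 nM, once every 24 h on 3 days; all cells were harvested at 72 h, and all were grown with human interleukin-6, murine interleukin-3 and murine stem cell factor. The source names give the genotypes as Mll5 WT and Mll5 KO, while the genotype field of the KO samples reads HOXA9 KO and the cell line field of all samples reads MII5, so the labels disagree on the gene that is missing. No label names the transforming oncogene, the strain or the number of animals or clones. DNA enrichment carries no expression markers, so the labelled cell type was not checked. With 1 array per group, each on a slide of its own, slide and group cannot be told apart, and no difference between 2 arrays can be set against replicates.

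Imprinted genes are expressed from 1 parental allele. In this domain the paternal alleles of Snrpn, Ndn, Magel2 and Mkrn3 are active, and a differentially methylated region at the Snrpn promoter, exon 1 and the start of intron 1, methylated in the egg and so on the maternal allele, acts as the imprinting centre of the whole cluster. Snrpn encodes a small nuclear ribonucleoprotein of the spliceosome, Ndn and Magel2 encode MAGE family proteins, and Mkrn3 encodes a RING finger protein with E3 ubiquitin ligase activity. A methylated and an unmethylated allele are both present in normal cells, and MeDIP does not separate them.

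The annotation (mm9) places the Snrpn start used here at chromosome 7, position 67150042, on the minus strand, with the transcript ending at 67127388; a longer transcript starts at 67285105, where no probe lies. The 32 Snrpn probes are numbered by position from 67147705 to 67155441, so probes 1 to 14 lie in intron 1, probe 15 in the 5′ untranslated exon 1, and probes 16 to 32 upstream of the start, inside an intron of the longer transcript. Probes 5 to 9, at chr7:67148499-67149120, were next to each other and all had MeDIP signal well above background on at least 1 decitabine array. Their sequences, and those of the next 4 probes towards exon 1, are shown 5′ to 3′ on the plus strand, with CpG sites in capitals, because the results turn on the step between them.
Snrpn probe 5: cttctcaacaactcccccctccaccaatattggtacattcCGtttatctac
Snrpn probe 6: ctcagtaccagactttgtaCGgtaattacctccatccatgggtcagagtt
Snrpn probe 7: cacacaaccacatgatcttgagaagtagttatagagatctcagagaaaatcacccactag
Snrpn probe 8: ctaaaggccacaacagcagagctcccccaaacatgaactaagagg
Snrpn probe 9: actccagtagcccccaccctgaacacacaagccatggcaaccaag
Snrpn probe 10: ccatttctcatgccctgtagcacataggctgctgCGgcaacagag
Snrpn probe 11: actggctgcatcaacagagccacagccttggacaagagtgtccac
Snrpn probe 12: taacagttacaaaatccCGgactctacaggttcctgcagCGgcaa
Snrpn probe 13: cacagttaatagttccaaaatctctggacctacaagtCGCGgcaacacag

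The run probes themselves hold 1, 1, 0, 0 and 0 CpG sites; MeDIP pulls down fragments longer than a probe, so a probe also reports CpG sites around it. A window of 500 bp centred on each probe holds 4, 5, 7, 11 and 16 CpG sites for probes 5 to 9, and 17 to 24 for probes 10 to 14. The 300 bases centred on probes 8 and 9, chr7:67148881-67149180 on the minus strand, the strand of Snrpn, hold 8 CpG sites, in capitals.
Snrpn intron 1: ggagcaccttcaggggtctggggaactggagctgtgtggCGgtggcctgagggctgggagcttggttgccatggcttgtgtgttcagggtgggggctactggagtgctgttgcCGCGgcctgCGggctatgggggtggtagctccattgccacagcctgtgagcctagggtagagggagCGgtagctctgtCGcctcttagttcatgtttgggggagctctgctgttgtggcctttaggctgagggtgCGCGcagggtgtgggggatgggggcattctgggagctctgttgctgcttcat

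The letters TGCCGC, the core recognised by the imprint-maintaining zinc finger protein ZFP57 when methylated, were searched on both strands (GCGGCA on the other); no other motif was searched. They occurred 10 times in the 7737 bp spanned by the Snrpn probes, all between 40 bp upstream and 977 bp downstream of the start, and the match at 977 bp downstream lies in the stretch printed here. A match fell in the 300 bp window around 9 of 32 Snrpn probes, 0 of 43 Ndn probes and 2 of 42 Mkrn3 probes, against 7.13% of 519521 such windows over the array. A match describes the letters, not a bound site.

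The Ndn and Mkrn3 probes that the results turn on are shown in the same way: Ndn probe 28 (chr7:69493375-69493419) and Mkrn3 probe 12 (chr7:69564808-69564852), both in coding exon sequence, and Mkrn3 probe 20 (chr7:69566200-69566259), upstream of Mkrn3.
Ndn probe 28: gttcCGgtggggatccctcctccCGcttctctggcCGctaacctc
Mkrn3 probe 12: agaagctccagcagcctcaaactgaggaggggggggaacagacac
Mkrn3 probe 20: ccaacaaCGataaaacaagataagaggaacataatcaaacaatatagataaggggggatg

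Ndn (69493163 to 69494814, plus strand) and Mkrn3 (69562479 to 69565039, minus strand) have a single exon each, as does Magel2 (69521865 to 69526526, plus strand). Ndn probe 28 was the only one of the 117 probes in a CpG-dense window, meaning 500 bp with a GC content of 55% or more and a CpG count of 0.75 or more times that expected from its base composition. It holds 3 CpG sites itself, and its window 39.

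A probe was kept where the input signal was well above background on all 4 arrays, as flagged by the scanner software. This held for 67 of the 117 probes (23 of 32 for Snrpn, 20 of 43 for Ndn, 24 of 42 for Mkrn3), against 63.1% of all probes. The other 9, 23 and 18 probes were left out for dim input, and they include Snrpn probes 16 to 18, the closest ones upstream of the start. The value of a probe is the log2 ratio of MeDIP over input with the median of each array set to 0, so a value below 0 is not an absence of methylation. Signals below background had been replaced with a stand-in by the scanner software, in 59.1%, 56.8%, 37% and 35.8% of kept probes in the MeDIP channel on the untreated arrays (WT, then KO) and the decitabine arrays (WT, then KO). Wherever 4 values follow each other, they are in that order.

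MeDIP signal was rarely well above background, at these genes as over the whole array. It was so on no array for 25 of 32 Snrpn, 40 of 43 Ndn and 40 of 42 Mkrn3 probes, against 87.6% of all probes. Of the kept probes, 1, 1, 6 and 5 of 23 Snrpn probes were well above background, against 4.08%, 4.09%, 14.2% and 16.1% of all kept probes. For Ndn the counts were 0, 0, 3 and 3 of 20, and for Mkrn3 0, 0, 1 and 2 of 24. The lowest MeDIP signal flagged as well above background was 1414, 1250, 1035 and 850 intensity units. The flag thus reached dimmer signals on the decitabine arrays, and the same signal could be flagged there but not without treatment. Snrpn probe 9 was the only member well above background on all 4 arrays (1.69% of all probes), and 3 Snrpn, 3 Ndn and 1 Mkrn3 probes were so only on both decitabine arrays (4.38% of all probes).

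**Figure D1:**
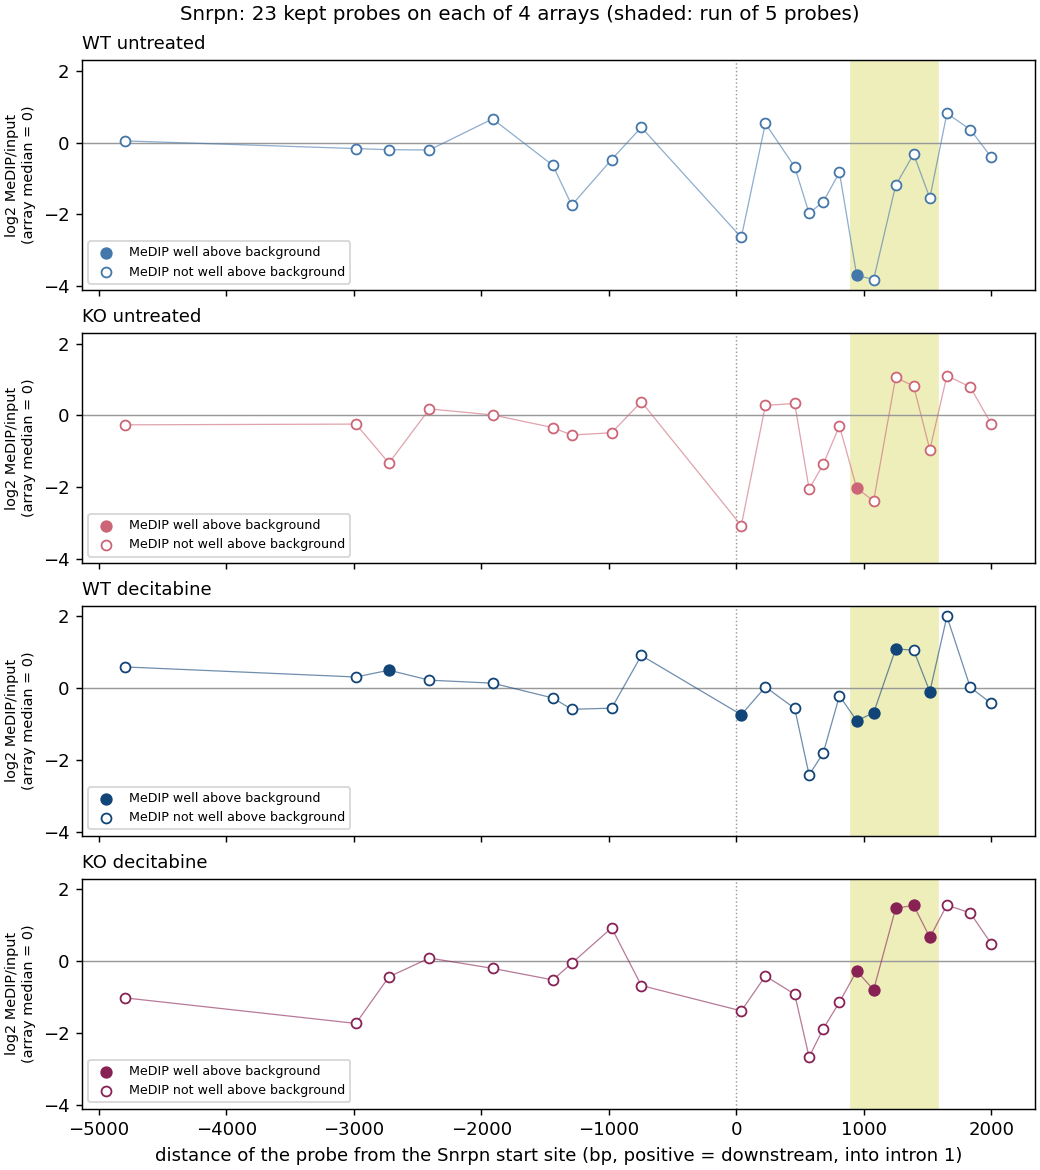
Log2 ratio of MeDIP over input (array median 0) of the 23 kept Snrpn probes against distance from the start site in bp, 1 panel per array. Filled points had MeDIP signal well above background, and the shaded run of 5 probes holds 1 of them on each untreated array, 4 with decitabine in WT and 5 with decitabine in KO cells.

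In the intron 1 run, 944 to 1518 bp downstream of the start, the mean log2 ratio over the 5 probes was -2.11, -0.70, 0.10 and 0.53. With decitabine all 5 probes lay above their untreated value in WT cells (mean difference 2.21 ± 0.78, SD over probes), also in the other scalings tried, where centring on bright probes gave 1.61 and loess 1.34. Bright probes here are the 8711 well above background in both channels on all 4 arrays. In KO cells all 5 did so as well (1.22 ± 0.60), but probes 6 and 7 turned below 0 with centring on bright probes and with loess, which gave means of 0.35 and 0.065. The run was picked out after its values were seen, so no test was made on it. Its probes were chosen for MeDIP signal well above background on a decitabine array. That choice favours differences above 0, so their number and size are no evidence of a change. Runs of at least 5 neighbouring probes well above background on a decitabine array occurred in 287 of 16837 genes with 10 or more probes (1.7%), and the longest such run was 1 probe in Ndn and in Mkrn3.

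Probe 9, at 944 bp, had log2 ratios of -3.69, -2.02, -0.90 and -0.27. Its MeDIP signal was 1663, 2135, 6257 and 5525 intensity units and its input signal 19276, 6659, 10620 and 7236. Both decitabine arrays were higher than both untreated arrays in MeDIP signal, while the WT untreated array had the highest input. The ratio was 6.93-fold higher with decitabine in WT cells and 3.37-fold higher in KO cells, log2 differences of 2.79 and 1.75 that were 2.19 and 0.88 centred on bright probes and 1.79 and 0.31 with loess. Without treatment it was 3.18-fold higher in KO than in WT cells, where the MeDIP signal was 1.28 times and the input signal 0.35 times that of WT. Under decitabine the ratio in KO cells was 1.55 times that of WT (a log2 difference of 0.63, or -0.09 with loess).

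Probe 8, next to it, had log2 ratios of -3.81, -2.38, -0.68 and -0.80, with MeDIP signals of 327, 464, 1686 and 1187. Only the decitabine signals were well above background, so the change is a bound: at least 2.02-fold higher in WT cells and at least 1.11-fold higher in KO cells. Such a bound compares the ratio of the bright array with that of the dim one. There the dim MeDIP signal counts as its array's lowest well-measured one (untreated 1414 in WT, 1250 in KO) unless it is higher itself. The KO decitabine signal of probe 8 lay below 1250, and its KO input was higher with decitabine (2241 against 1855). Its KO bound above 1 thus comes from the array centring alone. Probe 7 had log2 ratios of -1.19, 1.06, 1.10 and 1.47 and bounds of at least 1.31-fold in WT and 1.16-fold in KO cells, the latter difference turning below 0 with centring on bright probes and with loess. Its untreated KO value was close to the decitabine values and its untreated WT value was below the other three. The MeDIP signals of probe 7 with decitabine, 1277 in WT and 1153 in KO cells, also lay below those lowest untreated signals.

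Probe 6 had log2 ratios of -0.32, 0.81, 1.06 and 1.56 and was well above background on the KO decitabine array alone, at least 1.46-fold higher than without treatment, which also turned below 0 with those settings. In WT cells neither array measured it, so no size is given. Probe 5, the farthest from the start, had log2 ratios of -1.55, -0.95, -0.09 and 0.66 and bounds of at least 1.43-fold in WT and 3.06-fold in KO cells. At all 5 probes the WT untreated array had the lowest MeDIP signal. Centring on bright probes lowers every difference by 0.60 in WT and 0.87 in KO cells, so WT bounds under 1.52-fold and KO bounds under 1.83-fold, here and for Ndn and Mkrn3, fall below 1 with it.

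**Figure D2:**
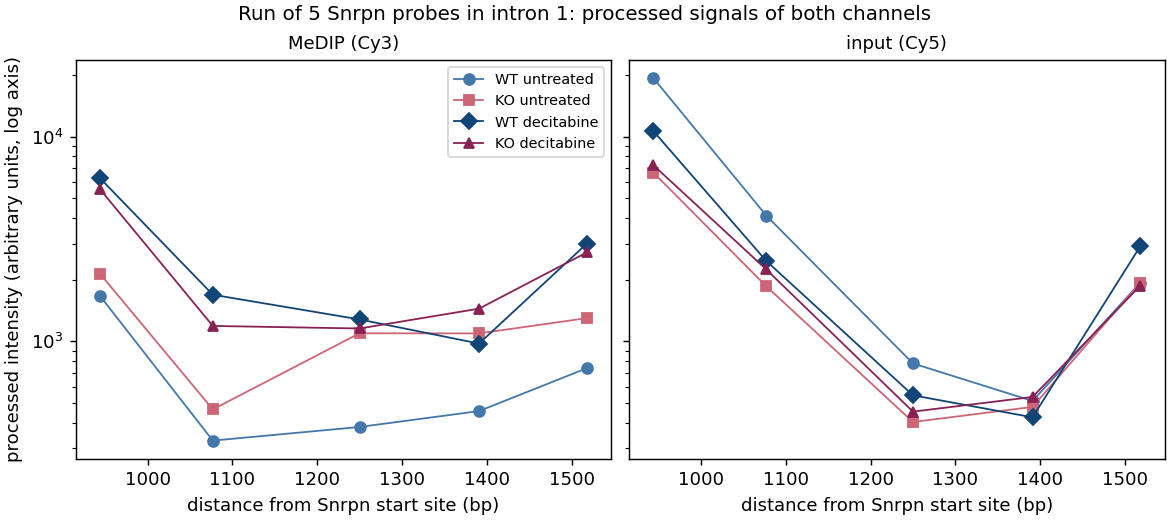
Processed intensity (log axis) of the MeDIP channel and the input channel at the 5 probes of the Snrpn intron 1 run against distance from the start in bp, 1 line per array. The WT untreated array has the lowest MeDIP signal at each probe, 1663 at probe 9 against 6257 with decitabine, and at probe 9 also the highest input, 19276.

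The run ended towards exon 1. Probes 10 to 14, 228 to 809 bp downstream of the start in more CpG-rich sequence, were not well above background on any array, and their mean log2 ratio was -0.92, -0.62, -0.99 and -1.40. With decitabine 2 of 5 lay above their untreated value in WT cells (mean difference -0.07) and 0 of 5 in KO cells (-0.78). Because neither array measured them, these values have no size as folds. Probe 15, in exon 1, had log2 ratios of -2.64, -3.06, -0.73 and -1.38 and was well above background on the WT decitabine array alone. It gave no bound above 1 in WT cells, and neither KO array measured it, so no size is given. Further into intron 1, probes 1 to 4, of which 3 were kept, were not well above background on any array.

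Upstream of the start, 9 of 17 probes were kept, with mean log2 ratios of -0.26, -0.29, 0.14 and -0.40. Of these, only probe 27 was well above background, on the WT decitabine array (log2 ratios -0.20, -1.32, 0.50 and -0.43). Its MeDIP signal was no higher there, 1298 against 1339 on the WT untreated array, where it was not flagged. The input signal was 833 against 1380. No other gene's probe lies within 10000 bp of the Snrpn probes, so the neighbours in the comparison are Snrpn's own probes and the other genes in and around the domain.

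Averaged over its 23 kept probes, Snrpn had log2 ratios of -0.84 ± 1.28, -0.46 ± 1.13, -0.10 ± 0.95 and -0.26 ± 1.15 (SD over probes). The order from low to high was WT untreated, KO untreated, KO decitabine, WT decitabine. Only the lowest step, 0.38 between the untreated arrays, was larger than its standard error over probes (0.16); the other steps were 0.20 (0.21) and 0.16 (0.19). These errors describe probes of 1 array, not cultures. Ndn had -0.69 ± 1.11, -0.76 ± 0.82, -0.47 ± 0.92 and -0.48 ± 0.93 over 20 probes, and Mkrn3 -0.40 ± 0.86, -0.62 ± 0.95, -0.59 ± 0.89 and -0.56 ± 0.84 over 24. For Ndn and Mkrn3, as for Snrpn, the probe values of the 4 arrays overlapped.

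**Figure D3:**
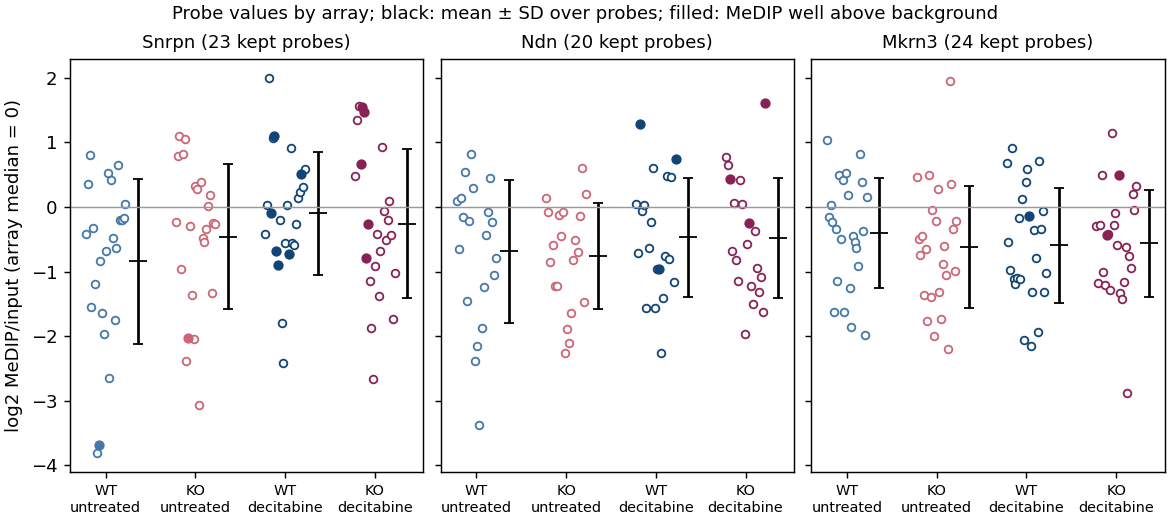
Log2 ratio of MeDIP over input (array median 0) of every kept probe of Snrpn (23), Ndn (20) and Mkrn3 (24) on the 4 arrays, with the mean ± SD over probes in black. Filled points had MeDIP signal well above background; for Ndn and Mkrn3 there are 0 of these on both untreated arrays.

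Decitabine was first set against no treatment in WT cells, the question being which of these promoters changed. The mean difference of Snrpn was 0.74 ± 1.03 (SD over 23 probes), with 16 of 23 probes above 0, against 55.3% of all kept probes. The gene difference stood at the 93.5th percentile of 18333 genes, and stayed above 0 in each scaling tried, from 0.14 when centred on bright probes to 0.93 in the MeDIP channel alone. Without the 5 run probes it was 0.33. Ndn differed by 0.22 ± 0.89 (9 of 20 probes above 0), which turned to -0.38 when centred on bright probes, and Mkrn3 by -0.20 ± 0.65 (8 of 24), which turned to 0.12 in the MeDIP channel alone.

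In KO cells the same comparison gave 0.20 ± 1.01 for Snrpn, with 12 of 23 probes above 0 against 53.8% of all kept probes. It stood at the 48.4th percentile of genes and turned to -0.67 when centred on bright probes and to -0.074 with loess, and it was -0.083 without the run. Ndn differed by 0.28 ± 0.94 (13 of 20), turning to -0.59 when centred on bright probes, and Mkrn3 by 0.06 ± 1.05 (14 of 24), turning to -0.81. None of the 3 genes met the rule of a 2-fold difference with at least 80% of probes moving the same way, which 1.36% of genes met upwards and 0.0218% downwards in WT cells, and 1.14% and 0.0109% in KO cells.

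**Figure D4:**
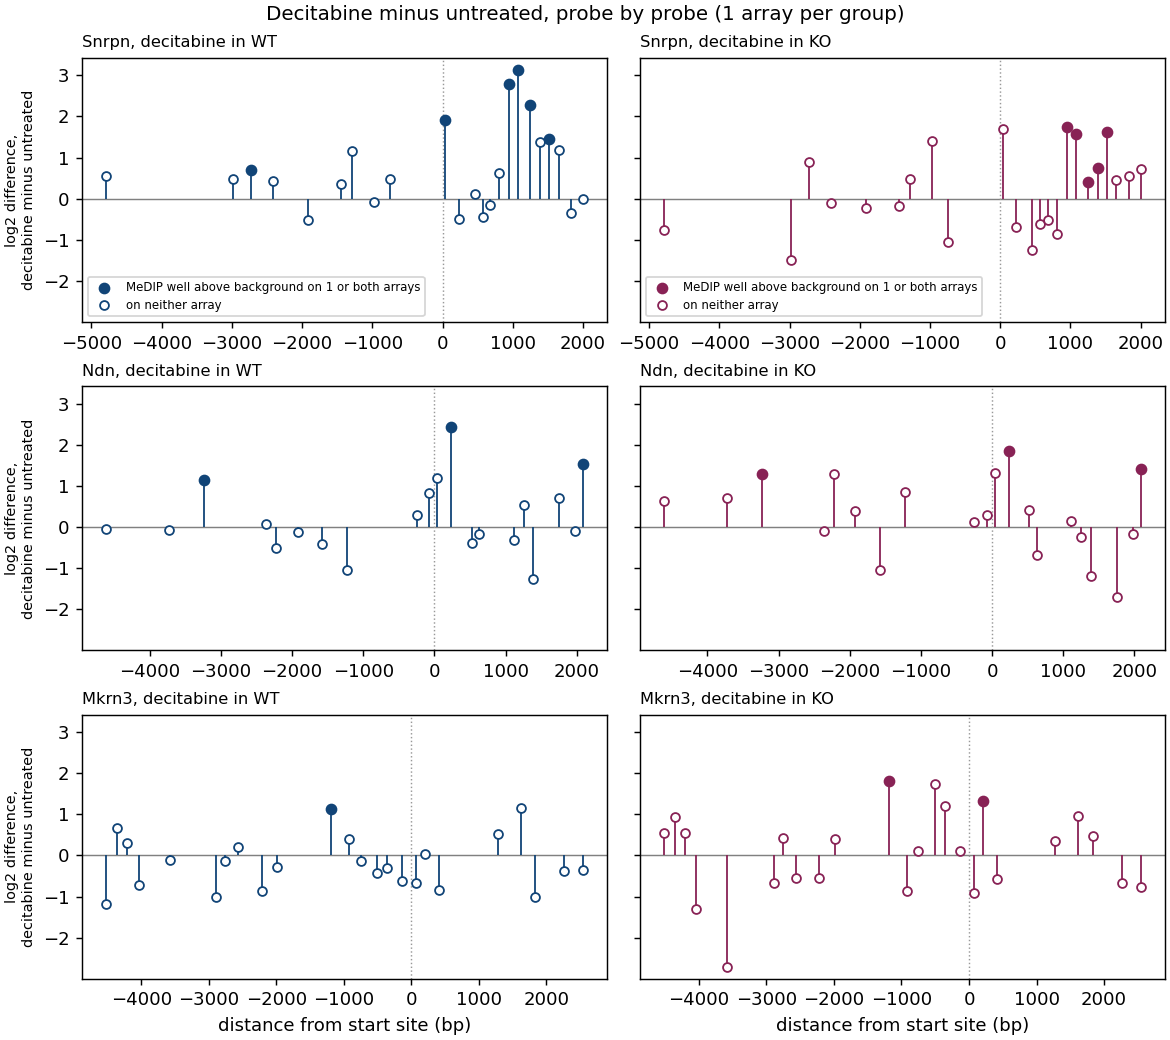
Log2 difference (decitabine minus untreated) of each kept probe of Snrpn, Ndn and Mkrn3 against distance from the start site in bp, in WT cells (left) and KO cells (right); filled points had MeDIP signal well above background on at least 1 of the 2 arrays. The 5 points of the Snrpn intron 1 run, 944 to 1518 bp downstream, are all above 0 in both columns (means 2.21 and 1.22). The run was chosen for MeDIP signal well above background on a decitabine array, which favours such differences. Probe 7 in KO cells (0.41) lies below some dim probes next to the run. Centring on bright probes lowers every difference by 0.60 in WT and 0.87 in KO cells, which turns probes 6 and 7 below 0 in KO cells.

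Decitabine was also tested over the 4 arrays with limma in an additive model of genotype and treatment, whose 1 residual degree of freedom is the difference between the genotypes' responses. Snrpn had a decitabine coefficient of 0.47 (SE 0.15, adjusted p = 0.0372), Ndn 0.25 (SE 0.12, adjusted p = 0.136) and Mkrn3 -0.07 (SE 0.13, adjusted p = 0.693). Of all genes 31.5% passed this test, so Snrpn's call is one among 5779, of which 94.5% were higher with decitabine; with centring on bright probes 0.744% of 10082 passing genes were higher, and with loess 21.0% of 295. Snrpn's call was lost in 6 of 7 alternative settings and its sign turned in 1 of them (-0.26 when centred on bright probes), with adjusted p-values from 6.69e-08 to 0.757 over the 7.

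Outside the run, Ndn probe 28, 234 bp into the coding exon, had log2 ratios of -3.38, -2.11, -0.95 and -0.25, with MeDIP signals of 305, 450, 1343 and 1091. Both decitabine signals were well above background and the untreated ones were not, which bounds the change at 1.16-fold or more in WT and 1.30-fold or more in KO cells. Both decitabine signals lay below the lowest well-measured untreated signal (1414 in WT and 1250 in KO cells). These bounds therefore come from the input and the array centring, and the MeDIP signal alone bounds no rise. The kept probes on either side, Ndn probes 26 and 30, were not well above background on any array. Ndn probe 7, 3236 bp upstream of the start, had log2 ratios of 0.14, -0.86, 1.29 and 0.44 (at least 2.22-fold in WT and 1.29-fold in KO cells). Ndn probe 41, past the end of the gene, had -0.79, 0.20, 0.75 and 1.61 (at least 2.64-fold in KO cells and no bound above 1 in WT cells).

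Mkrn3 probe 20, 1190 bp upstream of the start, had log2 ratios of -1.26, -1.31, -0.13 and 0.50, well above background on both decitabine arrays only (at least 1.23-fold in WT and 2.87-fold in KO cells). Mkrn3 probe 12, 209 bp into the coding exon, had -1.14, -1.77, -1.10 and -0.44 and was well above background on the KO decitabine array only (at least 1.50-fold). No probe next to any of these Ndn and Mkrn3 probes was well above background on a decitabine array. MeDIP signal well above background was more frequent on the decitabine arrays over the whole array too (9.12% and 10.5% of all probes against 2.71% and 2.63%), and the part of that in the values of single probes was not tested. The lowest signal so flagged was lower on both decitabine arrays, and its part in these shares was not tested either.

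Genotype was compared without treatment and under decitabine. Without treatment the KO minus WT difference was 0.38 ± 0.79 for Snrpn (14 of 23 probes above 0, against 57% of all kept probes), -0.07 ± 0.76 for Ndn (11 of 20) and -0.22 ± 0.54 for Mkrn3 (6 of 24). Without the run Snrpn's difference was 0.093. The Ndn difference turned to 0.16 with the deposited log ratio, 0.11 in the MeDIP channel alone, 0.073 with normexp and 0.011 with loess. It stayed below 0 when centred on bright probes, without the filter and as a median over probes. The WT untreated array is shared with the decitabine comparison in WT cells. The 2-fold rule was met upwards by 0.327% and downwards by 0.0927% of genes, and by no member.

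Under decitabine the KO minus WT difference was -0.16 ± 0.91 for Snrpn (8 of 23 probes above 0, against 52.4%), turning to 0.028 with normexp background correction. The gene rule was met by 0.524% of genes upwards, 0.0655% downwards and no member. It was -0.01 ± 0.82 for Ndn (10 of 20) and 0.03 ± 0.86 for Mkrn3 (11 of 24), the latter turning to -0.26 when centred on bright probes. In the run the KO minus WT difference was 1.42 without treatment (5 of 5 probes above 0) and 0.43 under decitabine (4 of 5), the latter turning to -0.12 with loess. The genotype coefficients in limma's additive model were 0.11 for Snrpn, -0.04 for Ndn and -0.10 for Mkrn3 (adjusted p = 0.684, 0.867 and 0.677), each turning sign in at least 1 of 7 alternative settings, and 4.09% of genes passed.

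No probe carried the name Magel2. By position, 4 probes named for another transcript lie in its exon, 2 of them kept, and none was well above background on any array. The kept coding probe, at chr7:69522365-69522409, had log2 ratios of -1.98, -1.37, -2.22 and 0.77, and the kept untranslated one -1.73, -1.88, -1.32 and 0.06. The KO decitabine value was the highest at both, and no size is given since neither array of any comparison measured them.

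Of 12 other genes in and around the imprinted domain (Ube3a, a ubiquitin ligase expressed from the maternal allele in neurons, Atp10a, Gabra5, Gabrg3, Oca2, Herc2, Nipa1, Nipa2, Cyfip1, Tubgcp5, Peg12 and Snurf), 11 had at least 3 kept probes, and Snurf had none of its name. Their median difference with decitabine was 0.20 in WT cells (9 of 11 above 0) and 0.19 in KO cells (9 of 11), against 0.25 and 0.21 over all genes (79.7% and 76.1% above 0); centring on bright probes puts all of these medians below 0. Herc2, a large HECT domain ubiquitin ligase, differed by 0.46 in WT and 0.80 in KO cells, and Gabra5, a GABA-A receptor subunit, by 0.40 and 0.33. Those 2 of 11 passed limma's decitabine test upwards (coefficients 0.63 and 0.37, adjusted p = 0.00922 and 0.0446) and 0 downwards, against 31.5% of all genes in either direction. For genotype 0 passed, against 4.09%. With centring on bright probes Herc2 turned to -0.14 and -0.07, and Gabra5 to -0.20 and -0.54. Peg12, a paternally expressed gene of the cluster, differed by 0.16 and 0.19, and Ube3a by 0.25 and 0.13, all turning below 0 with that centring.

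**Figure D5:**
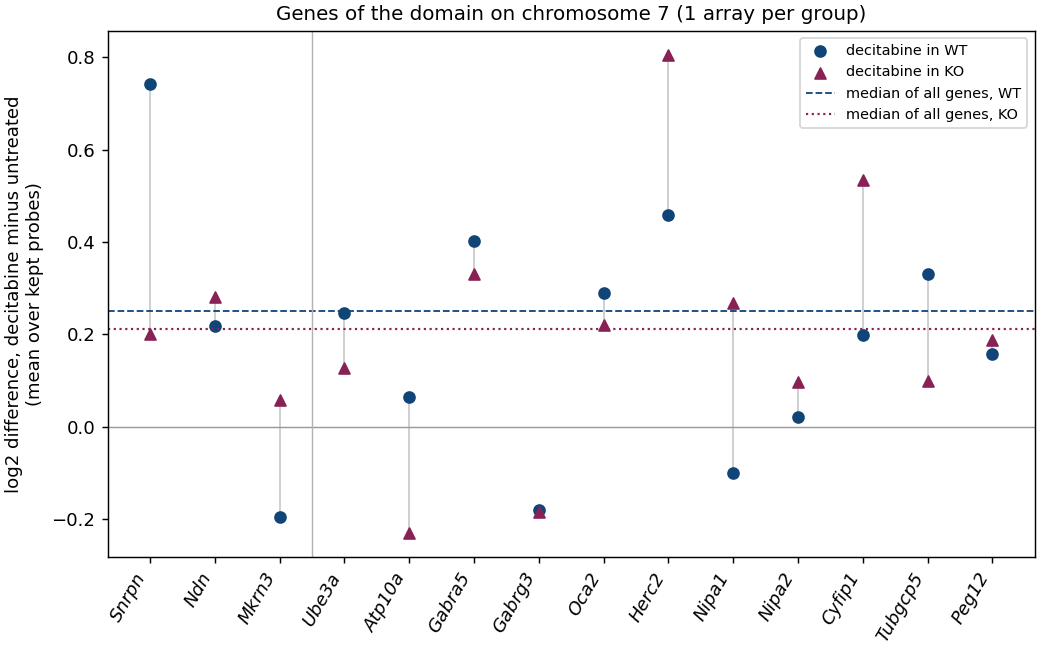
Log2 difference (decitabine minus untreated, mean over kept probes) of Snrpn, Ndn and Mkrn3 and of 11 other genes in and around the domain, in WT cells (circles) and KO cells (triangles), with the median of all genes as lines (0.25 and 0.21). Snrpn in WT cells (0.74) and Herc2 in KO cells (0.80) are the highest; centring on bright probes lowers all WT values by 0.60 and all KO values by 0.87, which puts Herc2 below 0 in both.

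Of 21 genes at other maternally methylated imprinted regions, 18 had values. Their probes were taken by gene name and need not lie in the methylated region itself, and genes were counted, not regions. The median difference of these 18 genes with decitabine was 0.46 in WT cells (17 of 18 above 0) and 0.32 in KO cells (15 of 18). Of them, 11 passed limma's decitabine test upwards and 0 downwards, against 31.5% of all genes in either direction. Centring on bright probes puts both medians below 0. In WT cells the ends of their range were Slc38a4, an amino acid transporter (0.79, or 0.19 centred on bright probes), and Nap1l5 (-0.34). In KO cells they were Igf2r, the receptor that clears insulin-like growth factor 2 (0.70, or -0.17 centred on bright probes), and Zrsr1 (-0.33). Snrpn's 0.74 in WT cells lies inside that range, as does its 0.20 in KO cells.

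The genes whose 4 array values were closest to those of Snrpn, by Euclidean distance over the 4 arrays among 15031 genes with at least 10 kept probes, were Tmod4, a tropomodulin (distance 0.039), Sept8, a septin (0.041), and Mical3 (0.065). Tmod4 had log2 ratios of -0.86, -0.48, -0.12 and -0.26. They lie on chromosomes 3, 11 and 6.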

How the data were processed

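The authors deposited the scanner output of 4 arrays, made with Agilent Feature Extraction (version 10.5 in the submitters' processing notes, 10.5.1.1 per the file headers), with positions on mm9 per the file headers. The deposited processed intensity of each channel is background-subtracted and dye-normalised on a linear scale, and the deposited log ratio is a log10 of red over green. The deposited value table, whose log2 values were matched only to the scanner log ratios (99.99% of 357133 rows with at least 3 values other than 0, to 3 decimals), was used for that check alone. Its identifiers match no probe column, it holds MeDIP over input on a log2 scale with no centring (column medians 0, 0, 0 and -0.14). The flags for background, saturation and surrogate signals were used as deposited.

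From the processed intensities a log2 MeDIP/input ratio was computed, averaged over spots and centred on each array's median, with no loess. Probes kept had input well above background and no outlier flag on all 4 arrays. A gene's value is the mean over at least 3 kept probes. A bound sets the bright array against the higher of the dim signal and the lowest MeDIP signal well above background. Dyes were not swapped, so folds are open to dye bias. Treatment and genotype were tested with limma 3.58.1 (lmFit, eBayes, Benjamini-Hochberg) over all 18333 genes, after a check on simulated data. Its 1 residual degree of freedom measures departure from additivity, not the spread between cultures. Named genes were the members, their domain neighbours (1 gene of that list is not reported here), the ends of the range of a list of other imprinted genes, and the 3 genes closest to Snrpn. Members, lists, the run and the motif were chosen with earlier results of these data known. The alternatives were other centring, loess, normexp, the deposited log ratio, the MeDIP channel alone, no filter, the median over probes and subsets of Snrpn probes.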

Additional observations from a re-analysis of the deposited data

Results flagged for a closer look

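The difference between KO and WT cells had opposite signs without treatment (0.38) and under decitabine (-0.16) for Snrpn, a change of -0.54. For Mkrn3 the response to decitabine had opposite signs in WT (-0.20) and KO cells (0.06), 0.25 apart. The KO minus WT difference of Mkrn3 likewise had opposite signs without treatment (-0.22) and under decitabine (0.03), which is the same 0.25 by arithmetic. Both genotype differences were below 0 when centred on bright probes, with loess and with the deposited log ratio, and opposite in sign in the other settings. These differences were not tested, since each group is 1 array and the additive model spends its only residual degree of freedom on them. For Mkrn3 no kept probe was well above background on either untreated array.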

How the results depend on the processing

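No paired analysis was possible because each group has 1 array and the labels carry no replicate numbers. The slide as a block could not be fitted, each array being on its own slide, and 0 Snrpn probes lie in CpG-dense windows, so that alternative has no value. Signal over background is a limit: 87.6% of probes were bright on no array. Snrpn's decitabine difference in WT cells was 0.14 centred on bright probes, 0.48 without the filter, 0.38 as a median over probes, 2.79 at its only probe bright on both arrays and 0.33 without the run, an alternative chosen after seeing the data. In KO cells these were -0.67, 0.047, -0.15, 1.75 and -0.083, with -0.074 under loess, -0.062 with the deposited log ratio and 0.55 in the MeDIP channel alone. Without treatment KO minus WT was 0.63 with the deposited log ratio, 0.21 without the filter, 0.21 as a median, 1.67 at the bright probe and 0.093 without the run. Under decitabine it was -0.45 centred on bright probes and 0.41 over 4 bright probes. In limma, genes passing for decitabine were 10082 (bright centring), 295 (loess), 3793 (normexp), 268 (deposited log ratio), 15331 (MeDIP alone), 2987 (no filter) and 1024 (median) against 5779, and for genotype 240, 221, 2316, 189, 140, 2727 and 48 against 749. Higher genes were 72.5% of the genotype calls, and 39.2%, 15.4%, 97.9%, 91.5%, 76.4%, 53.9% and 81.2% in the same order; for decitabine they were 76.7% with no filter. Snrpn's decitabine coefficient was -0.26 (bright centring), 0.28 (loess), 0.36 (normexp), 0.37 (deposited log ratio), 0.26 (no filter) and 0.12 (median), and no longer passed. Ndn's was -0.49 (bright centring, adjusted p = 0.0433), 0.54 (MeDIP alone, now passing), -0.020 (no filter) and -0.16 (median). Mkrn3's was -0.81 (bright centring, now passing), 0.091 (normexp) and 0.25 (MeDIP alone). For genotype, signs turned for Snrpn (-0.048 with bright centring, -0.0036 without the filter, -0.053 as a median), Ndn (0.039 with normexp, 0.016 with the deposited log ratio, 0.075 in MeDIP alone) and Mkrn3 (0.0077 with normexp). The causes were not tested.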

Other observations

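Some probes were printed at more than 1 spot, which gives the only repeat measurement in the data. Over 26564 kept probes with 2 spots, the median difference between spots was 0.30, 0.26, 0.26 and 0.33 (log2; untreated WT and KO, then decitabine WT and KO), and 95% differed by less than 1.19, 1.13, 1.19 and 1.26. Where MeDIP signal was well above background, 95% differed by less than 0.71, 0.49, 0.43 and 0.55. Of the Snrpn probes, 0 have a second spot, so these values describe the arrays and not the Snrpn run.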
